A study of Mus musculus with 96 samples.

Results

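The ionotropic transmitter receptors are ion channels that open when a transmitter binds them. Their subunits were taken as every gene in the files whose symbol marks a subunit of an AMPA, kainate, NMDA, delta, GABA-A, glycine, nicotinic or P2X receptor. The rule gave 63 genes of 24060 listed, namely 4 AMPA, 5 kainate, 7 NMDA, 2 delta, 19 GABA-A, 5 glycine, 14 nicotinic and 7 P2X genes. The delta and epsilon subunits of the muscle nicotinic receptor were not part of the rule. RNA was measured in the striatum of 48 mice, each of which gave 2 libraries. In all of these mice, treated and control, an adeno-associated virus had expressed HA-tagged Rpl22, a ribosomal protein, in striatal astrocytes for 3 weeks (the RiboTag method). An antibody to the tag then pulled down ribosomes with their RNA (the IP library), and the cleared lysate before the pull-down gave the input library.

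There were 6 experiments, each with 4 treated and 4 control mice. Quinolinic acid (QA), labelled 30 nM, was microinjected into the striatum of C57BL/6 mice 2 weeks before RNA extraction to ablate medium spiny neurons, the projection neurons that make up most of the striatum, and controls received vehicle there. Lipopolysaccharide (LPS), at 5 mg/kg, or vehicle was injected into the peritoneum of C57BL/6 mice 24 h before. Kir4.1flox/flox mice, in which the potassium channel gene Kcnj10 can be removed, received AAV5-GfaABC1D-Cre or AAV5-GfaABC1D-TdTomato, so that Cre was driven by a GFAP-derived promoter. Mice labelled IP3R2 knockout (Itpr2-/-) were set against wild-type littermates (Itpr2+/+). The designer receptors rM3Ds (Gs-coupled, 2 h after injection) and hM3Dq (Gq-coupled, time not given in the labels) were expressed in striatal astrocytes of C57BL/6 mice, which received clozapine-N-oxide (CNO) at 1 mg/kg or vehicle. Both arms carried the receptor, and CNO without a receptor was not part of the samples.

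Glutamate acts on the AMPA, kainate and NMDA families, GABA and glycine on chloride channels of related build, acetylcholine on the nicotinic family, and extracellular ATP on the P2X family. A channel is built from several subunits, and which ones are present sets its ion selectivity, its affinity and its place at or outside the synapse. Neurons hold most of these channels. Astrocytes are known to have AMPA and GABA-A receptors, and microglia are known for P2X4 and P2X7.

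Values below are FPKM, fragments per kilobase of gene scaled to the total of the library, as the authors deposited them, and each group of an experiment has n = 4 mice. A change is the log2 of the treated over the control level, or of the IP over the input level, after scaling and addition of 0.1 FPKM. A gene was called where limma gave a Benjamini-Hochberg adjusted p under 0.05 over all genes tested. Errors beside FPKM means are SD, and those beside log2 values are SE.

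IP libraries held 42482787 to 82256165 reads in genes and input libraries 14738821 to 51033642. Over the 24 control mice the summed level of 15 astrocyte markers was 5249 to 9225 FPKM in IP and 1055 to 1236 in input. That of 15 medium spiny neuron markers was 1385 to 2952 FPKM in IP and 4605 to 5906 in input, so IP still held RNA of neuronal genes. Kcnj10 was 27.9 to 36.1 FPKM in Cre IP and 142 to 164 in TdTomato IP (−2.21 ± 0.08, adjusted p = 1.74e-07). Itpr2 was 10.4 to 14.5 FPKM in IP of the mice labelled knockout and 9.92 to 13.7 in wild-type IP (0.07 ± 0.13, adjusted p = 0.975), so the knockout is named below only as its label. By Xist and Y-linked genes the QA arm held 1 female and 3 males, against 4 females in its vehicle arm. In several genes the second LPS mouse (replicate 2) differed from the other 3, and LPS results are given with and without it.

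Several GABA-A genes lie in genomic clusters, and neighbours in a cluster went opposite ways below. Gabrg1, Gabra2, Gabra4 and Gabrb1 lie between positions 70751047 and 72149572 of chromosome 5 (mm10). Gabra4 and Gabrb1 run in opposite directions from starts that overlap by 388 bases, and yet Gabra4 was low and Gabrb1 high in IP. Their promoters are shown for this reason, with those of Gabrg1, Grin2c and P2rx7, the other members on which the results turn. Each is the 300 bases from 250 before to 50 after the start of the gene in RefSeq (GRCm38.p6, the mm10 build), 5′ to 3′ on the strand of the gene. Capitals mark CG pairs in the first 4.
Gabra4 (chr5:71658259-71658558, minus strand): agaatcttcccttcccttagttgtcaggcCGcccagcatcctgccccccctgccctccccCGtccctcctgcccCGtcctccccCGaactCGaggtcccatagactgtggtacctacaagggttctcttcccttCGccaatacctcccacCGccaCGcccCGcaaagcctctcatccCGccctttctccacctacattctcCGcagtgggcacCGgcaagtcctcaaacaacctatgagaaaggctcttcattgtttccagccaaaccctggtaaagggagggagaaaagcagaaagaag
Gabrb1 (chr5:71657671-71657970, plus strand): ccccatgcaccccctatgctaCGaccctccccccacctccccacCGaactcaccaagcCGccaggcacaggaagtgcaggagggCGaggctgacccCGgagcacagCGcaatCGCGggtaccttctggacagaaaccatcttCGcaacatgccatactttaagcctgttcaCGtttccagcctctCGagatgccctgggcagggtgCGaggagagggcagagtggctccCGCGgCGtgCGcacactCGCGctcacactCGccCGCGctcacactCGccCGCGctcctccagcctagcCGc
Gabrg1 (chr5:70842568-70842867, minus strand): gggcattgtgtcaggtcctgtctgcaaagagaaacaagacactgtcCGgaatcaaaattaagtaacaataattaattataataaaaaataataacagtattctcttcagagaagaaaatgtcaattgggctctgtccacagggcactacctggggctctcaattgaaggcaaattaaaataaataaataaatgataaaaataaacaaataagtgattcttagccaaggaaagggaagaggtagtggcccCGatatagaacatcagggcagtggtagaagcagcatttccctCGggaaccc
Grin2c (chr11:115267194-115267493, minus strand): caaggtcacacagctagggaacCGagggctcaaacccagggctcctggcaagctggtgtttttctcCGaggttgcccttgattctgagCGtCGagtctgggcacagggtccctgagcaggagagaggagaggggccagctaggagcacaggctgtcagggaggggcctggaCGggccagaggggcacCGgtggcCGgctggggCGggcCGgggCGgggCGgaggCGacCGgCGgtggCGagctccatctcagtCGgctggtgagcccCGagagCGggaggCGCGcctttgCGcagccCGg
In the P2rx7 promoter capitals mark the letters TGANTCA, the core of sites for AP-1 factors, where N is any base.
P2rx7 (chr5:122643677-122643976, plus strand): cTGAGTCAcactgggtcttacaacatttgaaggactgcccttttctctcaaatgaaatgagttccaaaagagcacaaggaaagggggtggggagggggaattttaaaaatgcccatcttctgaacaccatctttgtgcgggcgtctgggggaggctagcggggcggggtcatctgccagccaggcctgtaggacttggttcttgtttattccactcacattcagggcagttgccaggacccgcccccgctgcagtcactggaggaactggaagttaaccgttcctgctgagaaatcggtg
The Gabrb1 and Grin2c windows held 25 and 22 CG pairs, that of Gabra4 held 12 and that of Gabrg1 held 3. Over all 32851 RefSeq promoter windows of this length the median was 7, with quartiles of 3 and 20. RefSeq windows were found for 44 of the 63 genes, 50 windows in all, with a median of 10 CG pairs. TGANTCA, searched on both strands, occurred in 3 of these 50 windows (6.0%), those of P2rx7, Chrna1 and Grin3b, and in 7.81% of all windows. TGACGTCA, the letters bound by CREB, occurred in 0 of the 50 and in 1.79% of all windows. A match is a description of letters and not a site in use.

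The first comparison asked which subunits were relatively high or low in IP of control mice. In 24 mice 43 of the 63 members were tested, having reached 0.5 FPKM in at least 4 libraries. Grin2c, Gabrg1, Grin3a, Grin2d and Gabrb1 stood out on the IP side, and Gabra4, Gabra5 and Gabrd on the input side. Of the 43 members, 17 were higher and 21 lower in IP, where 88.8% of all 15566 genes were called (42.3% higher, 46.5% lower), so that being called at all sets no member apart. The 17 include Chrna3 (1.38), with 0.41 to 1.02 FPKM in IP and at most 0.402 in an input library. It entered the test only through the IP libraries, so a difference was built into its selection. The median log2 ratio of the 43 members was −0.09, beside −0.05 for all genes. The fit took the 24 mice as independent, although ratios differed between experiments. They ran from −1.28 to −0.38 for Gria2, from −1.85 to −0.57 for Gabrd and from 0.78 to 2.18 for Grin2d. The SE and p-values of these ratios do not allow for that. The 20 members not tested had at most 0.711 FPKM in a control library, in Chrna2, and at most 0.298 as a mean over the control mice. They include the rho subunits of the GABA-A family, Gabra6, 9 nicotinic genes and P2rx1, P2rx2, P2rx3 and P2rx5.

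All 4 AMPA genes were lower in IP. Gria2, the subunit that makes AMPA channels impermeable to calcium, was 43.8 FPKM in the lowest, 79.9 in the median and 125 in the highest IP library, against 113, 149 and 179 in input. The highest IP libraries overlapped the lowest input libraries (−0.68 ± 0.06, adjusted p = 7.81e-11). Gria1 was −0.48, Gria3 −0.33 and Gria4 −0.09 on the same log2 scale. Of the kainate genes, Grik2 (−0.86 ± 0.04) and the high-affinity subunit Grik5 (−0.77 ± 0.03) were lower in IP, and Grik4 was higher (0.42). The delta gene Grid1 was lower in IP (−0.33).

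The NMDA genes split. Grin1, the subunit every NMDA receptor needs, was the most abundant and nearly even, at 65.8 ± 13.0 FPKM in IP and 81.1 ± 5.96 in input (−0.12 ± 0.06, adjusted p = 0.0372). Its call was lost in 11 of 37 alternatives, among them leaving out any 1 hM3Dq vehicle mouse, rM3Ds vehicle replicate 2 or 3 or TdTomato replicate 4. Grin2c, a GluN2 subunit best known from cerebellar granule cells, was 25, 33.7 and 65.7 FPKM in the lowest, median and highest IP library, against 6.83, 8.91 and 11.1 in input. No IP library fell into the input range, and the ratio was 2.24 ± 0.05 (adjusted p = 3.39e-25), between 2.06 and 2.75 within single experiments. Grin3a averaged 7.83 ± 1.03 FPKM in IP and 2.82 ± 0.562 in input (1.66 ± 0.05), and Grin2d 2.27 ± 0.567 in IP and 0.934 ± 0.581 in input (1.53 ± 0.10). Grin2a (−0.68 ± 0.05) and Grin2b (−0.32) were lower in IP.

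The GABA-A genes split as well. Gabrb1 was 42.4, 50.6 and 60.9 FPKM in the lowest, median and highest IP library, against 18.9, 21.3 and 25.2 in input (1.44 ± 0.03, adjusted p = 2.92e-24). Gabrg1 was 17.0, 22.6 and 32.5 FPKM in IP, against 4.25, 7.76 and 10.8 in input (1.85 ± 0.06, adjusted p = 7.28e-22). In both genes every IP library lay above every input library. Gabrd, the subunit of receptors outside the synapse that carry tonic inhibition, was 18.3, 28.9 and 44.8 FPKM in IP, against 58.9, 72.5 and 95.5 in input (−1.12 ± 0.08). Gabra4, which pairs with it, was 17.3, 25.3 and 36.0 FPKM in IP, against 55.4, 67.6 and 82.6 in input (−1.19 ± 0.05, adjusted p = 7.62e-18). Both were lower in every IP library than in any input library. Gabra5 was lower in IP as well (−1.13 ± 0.06).

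Gabra4 and Gabrb1 overlap each other, as do Chrna3 and Chrna5 by 1304 bases. Whether counting used the strand is not stated, so reads in stretches where genes overlap, these and others, may belong to either gene.

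Glycine, nicotinic and P2X genes were fewer. Glrb, which anchors glycine receptors to gephyrin, was the most abundant glycine gene at 70.8 ± 7.51 FPKM in IP and 79.7 ± 7.21 in input, and was not called (0.03, adjusted p = 0.16). Glra2 was higher in IP at 9.97 ± 1.10 FPKM, against 7.45 ± 1.24 in input (0.63 ± 0.05, adjusted p = 1.85e-12). Chrnb2, the partner of alpha subunits in brain nicotinic receptors, was 13.9 ± 1.26 FPKM in IP and 16.8 ± 1.29 in input (−0.07, adjusted p = 0.0295), and Chrna7, which forms channels on its own, was −0.44. All 3 P2X genes tested were higher in IP. P2rx7 was 3.88, 5.18 and 6.58 FPKM in the lowest, median and highest IP library, against 2.14, 2.83 and 3.84 in input (1.06 ± 0.05, adjusted p = 1.91e-18). It was higher in IP in 24 of 24 mice, and every IP library lay above every input library, if narrowly. The summed level of the microglia markers was 27.8 to 40.8 FPKM in control IP and 373 to 1050 in control input. P2rx4, its neighbour on chromosome 5, was 7.26 ± 1.19 FPKM in IP and 7.48 ± 1.05 in input (0.15, adjusted p = 9.02e-04), and P2rx6 was 2.21 ± 0.753 in IP and 1.13 ± 0.633 in input (1.17 ± 0.08). The call of Chrnb2 was lost in 9 of 37 alternatives, among them leaving out hM3Dq vehicle replicate 2, 3 or 4 or TdTomato replicate 2, and that of P2rx4 in 4, namely without TMM and within the QA, Kcnj10 or Itpr2 controls alone.

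Without the TMM scaling the median of all genes was −0.24 in place of −0.05, and 14 members were higher and 24 lower in IP. Grin2c (2.03), Gabrb1 (1.24) and Gabra4 (−1.40) kept their side, while Glrb (−0.17) and P2rx4 (−0.05) changed theirs.

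**Figure D1:**
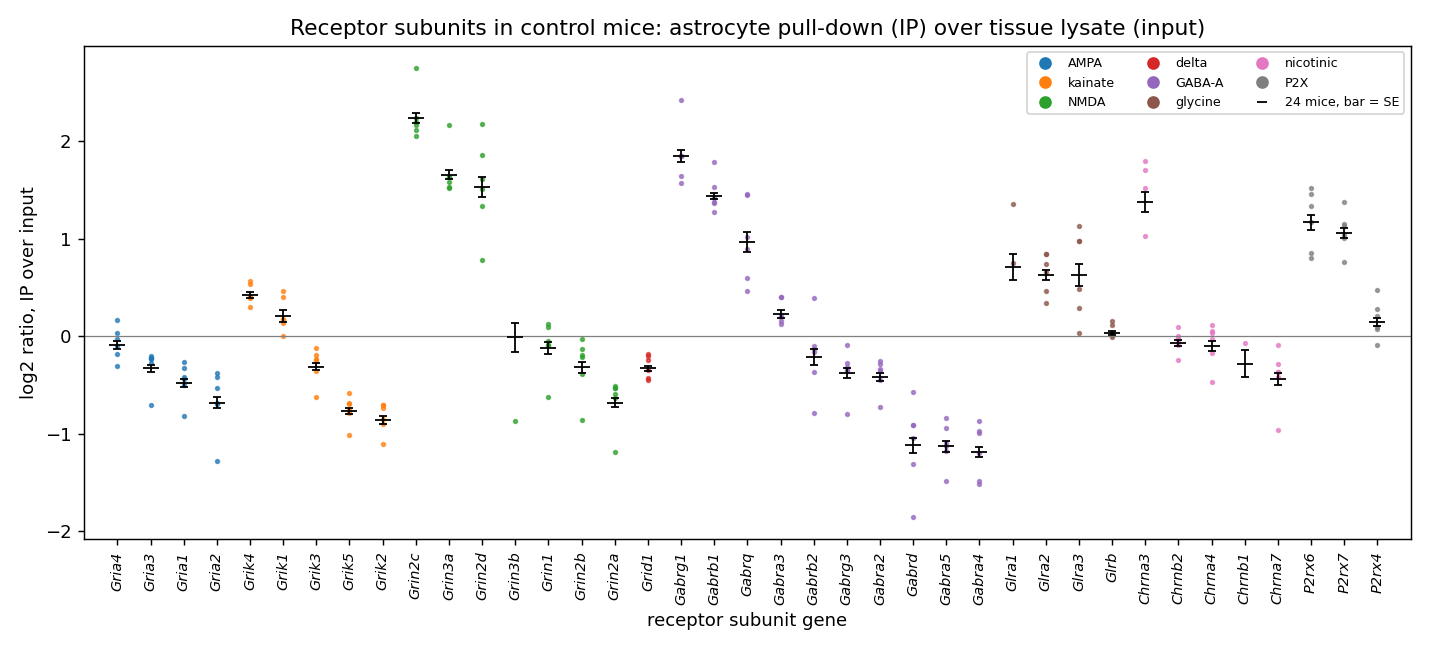
Log2 ratio of IP over input in control mice for tested members, with 1 dot per experiment (4 mice) and a black dash with its SE for all 24 mice. Grin2c and Gabrg1 lie furthest to the IP side at 2.24 and 1.85, and Gabra4, Gabra5 and Gabrd furthest to the input side at −1.19, −1.13 and −1.12.

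Since FPKM are per length, the share of a subunit within its class can be given, as a description chosen after the values were seen and with no test. Gabrb1 made up 38.8 ± 8.23% of the summed FPKM of the GABA-A beta genes in control IP and 12.6 ± 1.64% in input (n = 24). Gabrg1 was 34.8 ± 4.75% of the gamma genes in IP and 11.4 ± 2.43% in input. Grin2c was 39.8 ± 9.79% of the GluN2 genes in IP and 9.73 ± 1.29% in input. Grin2b was 67.2% of the GluN2 genes in input. On average over control IP the level of Grin2c thus came near that of Grin2b, which had 46.1% of its class. Experiments differed in this: Grin2c had 30.7 and Grin2b 52.2 FPKM in QA vehicle IP, but 59.7 and 32.9 in hM3Dq vehicle IP.

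The genes around the receptors were taken from 5 lists. Of all genes 42.3% were called higher and 46.5% lower in control IP. Of 13 auxiliary subunits of AMPA and kainate receptors 1 was higher and 11 were lower in control IP than in input, with a median of −1.07. The higher one was Shisa6, which slows AMPA receptor desensitisation, at 1.35 FPKM in IP and 0.639 in input (1.17), and Cnih2, an AMPA receptor export factor, had 29.8 FPKM in IP and 150.0 in input (−2.13). Of 17 postsynaptic scaffolds 6 were higher and 11 lower, among them Homer3 (1.73) and Dlg4, the gene of PSD-95 (−1.34). Of 10 partners of GABA-A and glycine receptors 5 were higher and 5 lower, and of 7 nicotinic chaperones and prototoxins 2 were higher and 5 lower, with Lypd6 at 9.43 FPKM in IP and 4.16 in input (1.36). Of 9 genes of transmitter synthesis and vesicular loading 4 were higher in IP and 2 lower. Slc17a8 (2.52) and Chat (2.33), both made by cholinergic interneurons, led this list, and the summed interneuron markers were 929 to 1734 FPKM in IP and 300.0 to 526 in input. The part of interneuron RNA in these ratios was not tested.

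QA was given to remove medium spiny neurons. Of 40 members tested in IP 35 fell and 4 rose, where 74% of all 13824 genes were called, 38.5% downward and 35.5% upward. The members' median was −1.03, beside −0.02 for all genes. All 4 AMPA genes, all 6 NMDA genes tested, 3 of 3 glycine and 4 of 4 nicotinic genes fell in IP, as did 4 of 5 kainate and 12 of 13 GABA-A genes. The 4 that rose were Gabrb1, P2rx4, P2rx6 and P2rx7, and Grik4 was not called (0.02).

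Gabrd had the largest fall. It was 7.10, 9.74, 3.94 and 5.36 FPKM in QA IP, against 44.4, 43.9, 43.3 and 44.8 in vehicle IP (−2.85 ± 0.21, adjusted p = 2.35e-06). The input values were 23.2, 30.1, 24.6 and 23.4 FPKM in QA mice, against 76.1, 75.4, 78.5 and 69.6 in vehicle mice (−1.68 ± 0.08, adjusted p = 1.00e-07). The arms were far apart in both fractions. Gabra4 fell in both, to 9.54 to 12.5 FPKM in QA IP, against 29.3 to 30.5 in vehicle IP (−1.50), and to 27.5 to 29.4 in QA input, against 67.7 to 69.1 in vehicle input (−1.37 ± 0.04), with no call of a difference between the fractions (−0.04).

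Grin1 was 23.4, 27.6, 14.9 and 14.8 FPKM in QA IP, against 82.9, 76.5, 77.8 and 79.7 in vehicle IP (−2.06 ± 0.18, adjusted p = 5.26e-06). Gria2 was 33.2, 35.5, 20.7 and 19.2 FPKM in QA IP, against 97.4, 99.3, 101 and 106 in vehicle IP (−1.98 ± 0.18, adjusted p = 6.68e-06). For both genes QA replicates 1 and 2 lay above replicates 3 and 4, and all 4 lay far below the vehicle mice. In input Grin1 was 35.7 to 41.5 FPKM in QA mice, against 78.9 to 85.2 in vehicle mice (−1.23 ± 0.06), and Gria2 68.4 to 77.3 in QA input, against 151 to 159 in vehicle input (−1.17 ± 0.04).

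Gabrb2, a GABA-A beta subunit, and Glra2 fell in IP. Gabrb2 was 11.7, 12.1, 8.26 and 6.00 FPKM in QA IP, against 40.4, 34.7, 40.0 and 37.9 in vehicle IP (−2.08 ± 0.19, adjusted p = 7.05e-06). In input Gabrb2 fell by 0.97. Glra2 was 3.12, 3.39, 2.16 and 1.99 FPKM in QA IP, against 10.1, 9.99, 9.54 and 9.21 in vehicle IP (−1.90 ± 0.15, adjusted p = 3.04e-06). Glra2 fell in input too, by 0.58, with 3.74 to 5.94 FPKM in QA mice and 6.08 to 7.88 in vehicle mice. Chrna7 fell by 1.64 in IP and 1.39 in input, and Grin2b by 1.85 in IP and 0.95 in input.

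Of the subunits with high IP over input ratios in controls, Grin2c, Gabrg1 and Grin3a fell in IP and Gabrb1 rose. Grin2c was 22.5, 21.7, 18.7 and 19.0 FPKM in QA IP, against 29.2, 33.0, 31.0 and 29.5 in vehicle IP (−0.62 ± 0.07, adjusted p = 2.35e-05), and its input was not called (−0.13). Gabrg1 was 12.1, 10.8, 12.8 and 9.83 FPKM in QA IP, against 18.3, 20.6, 20.0 and 17.0 in vehicle IP (−0.77 ± 0.10), with input not called (0.19). For both the arms did not overlap in IP. Gabrb1 was 60.4, 54.4, 53.0 and 47.9 FPKM in QA IP, against 42.4, 48.3, 45.4 and 48.9 in vehicle IP, so that the arms overlapped (0.18 ± 0.07, adjusted p = 0.0476). Its call was lost in 8 of 17 alternative analyses. Grin3a fell in IP, with 3.88 to 5.27 FPKM in QA IP and 6.04 to 6.60 in vehicle IP (−0.49 ± 0.10), and rose in input, with 2.78 to 3.59 in QA mice and 2.13 to 2.33 in vehicle mice (0.40 ± 0.09, adjusted p = 0.00354).

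As shares of their class, Gabrb1 was 61.4 ± 2.90% of the GABA-A beta genes in QA IP and 32.7 ± 1.88% in vehicle IP. Grin2c was 51.0 ± 6.95% of the GluN2 genes in QA IP and 31.8 ± 1.88% in vehicle IP. Gabra2 was 43.1 ± 3.09% of the alpha genes in QA IP and 24.2 ± 1.96% in vehicle IP. Gria2 was 33.9 ± 3.28% of the AMPA genes in QA IP and 41.4 ± 0.648% in vehicle IP. For each of these 4 the 2 arms differed by more than their SDs. They were chosen after their values were seen and with no test. A share also moves when other genes of its class change. Grin2c itself changed by −0.62 in IP while its share rose, with Grin2b at −1.85.

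The 3 P2X genes tested in IP rose there and in input. P2rx4 was 10.1, 10.9, 11.6 and 11.6 FPKM in QA IP, against 8.58, 7.40, 8.31 and 8.21 in vehicle IP (0.40 ± 0.07, adjusted p = 5.65e-04). The input libraries held 26.7, 27.5, 25 and 32.7 FPKM in QA mice, against 9.91, 8.81, 8.39 and 8.26 in vehicle mice (1.53 ± 0.09, adjusted p = 3.45e-07). The arms did not overlap in either fraction. P2rx7 was 7.20, 7.19, 7.74 and 8.56 FPKM in QA IP, against 5.31, 4.74, 4.83 and 4.81 in vehicle IP (0.59 ± 0.08, adjusted p = 6.71e-05), and 11.2, 10.7, 8.89 and 11.5 in QA input, against 3.48, 3.03, 3.15 and 3.47 in vehicle input (1.54 ± 0.10, adjusted p = 4.07e-07). P2rx6 rose as well, by 0.75 ± 0.12 in IP and 1.15 ± 0.20 in input. P2rx1, below the level set for naming and chosen after its values were seen, was 0.629 to 0.890 FPKM in QA input and 0.0534 to 0.289 in vehicle input. It entered the test only through the QA libraries, so these values are a description.

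In input 27 of 39 members fell and 5 rose, where 73% of all genes were called (35.4% upward, 37.6% downward), and the median was −0.71. The 5 include P2rx1 (1.68), which entered the test only through the QA libraries. Cell type markers moved with these results. The 15 medium spiny neuron markers summed to 410 to 631 FPKM in QA IP, against 2845 to 2952 in vehicle IP, and 15 of 15 fell, with a median of −2.43. In input they summed to 2098 to 2312 FPKM in QA mice, against 5480 to 5588 in vehicle mice. The microglia markers summed to 83.6 to 135 FPKM in QA IP, against 34.8 to 40.2 in vehicle IP, and to 4966 to 7154 in QA input, against 901 to 1050 in vehicle input, and 14 of 14 rose in both. The astrocyte markers summed to 8950 to 10789 FPKM in QA IP, against 5819 to 6340 in vehicle IP. The part of these shifts in the receptor results was not tested, and in bulk RNA fewer cells of a type and less RNA per cell cannot be told apart. With sex as a covariate 34 members were called in IP and 31 in input. Without the TMM scaling the median of all genes in input was 0.09 in place of −0.02, and 7 members rose and 25 fell. The share of all genes called under either setting is not given here, so whether members held up more than other genes was not tested.

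**Figure D2:**
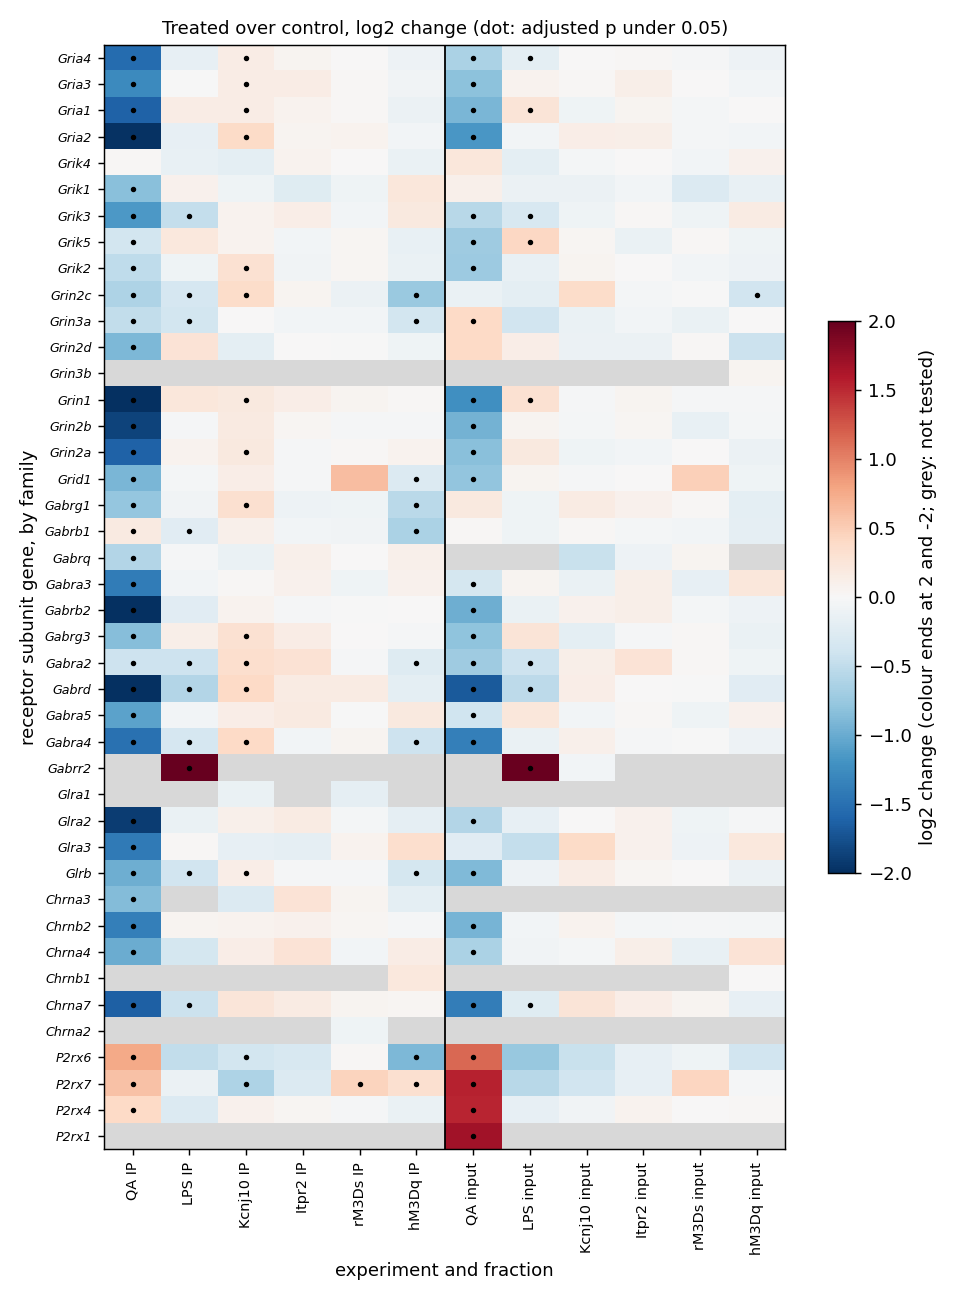
Log2 change of treated over control for members tested in at least 1 comparison, with the 6 IP comparisons left of the 6 input comparisons; a dot marks a call, grey was not tested and the colour ends at 2 either way. Most cells of the QA columns carry a dot, while the Itpr2 columns have none.

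A test of the difference between the IP and the input change asked whether QA acted unequally in the 2 fractions. It called 30 of 42 members, 24 with the more negative change in IP and 6 with the more positive one, where 47% of all genes were called (23% positive, 24.1% negative). The 24 include P2rx1 (−1.53), which was tested only through the QA libraries. Without the TMM scaling, which put the median of all genes at −0.15 in place of 0.00, 31 were on the negative side and 2 on the positive side. All 4 AMPA and all 6 NMDA genes were on the negative side. The gap was −1.25 for Glra2 (adjusted p = 9.88e-05), −1.24 for Grin2d (8.25e-04), −1.12 for Glra3 (6.02e-04) and −1.09 for Gabrd (8.63e-04). Glra2, Grin2d and Glra3 were higher in IP than in input of control mice, as were the summed interneuron markers. The part of interneuron RNA in these gaps was not tested. Grin2d was 0.723 to 0.963 FPKM in QA IP, against 1.46 to 1.84 in vehicle IP (−0.90), and was not called in input. P2rx4 (−1.06) and P2rx7 (−0.87, adjusted p = 1.63e-04) were on this side, having risen less in IP. On the positive side were Grik5 (0.43), Gabra2 (0.38) and Grik2 (0.30), which fell by 0.36, 0.41 and 0.51 in IP and by 0.71, 0.71 and 0.73 in input. These 3 calls were less firm: that of Grik5 was lost in 6 of 15 alternatives, with values down to 0.20, that of Gabra2 in 2, down to 0.19, and that of Grik2 in 3, down to 0.12. All 3 were lost without QA replicate 2 or vehicle replicate 4, those of Grik5 and Grik2 without vehicle replicate 3, and that of Grik5 also without QA replicate 1, TMM or the mouse block.

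**Figure D3:**
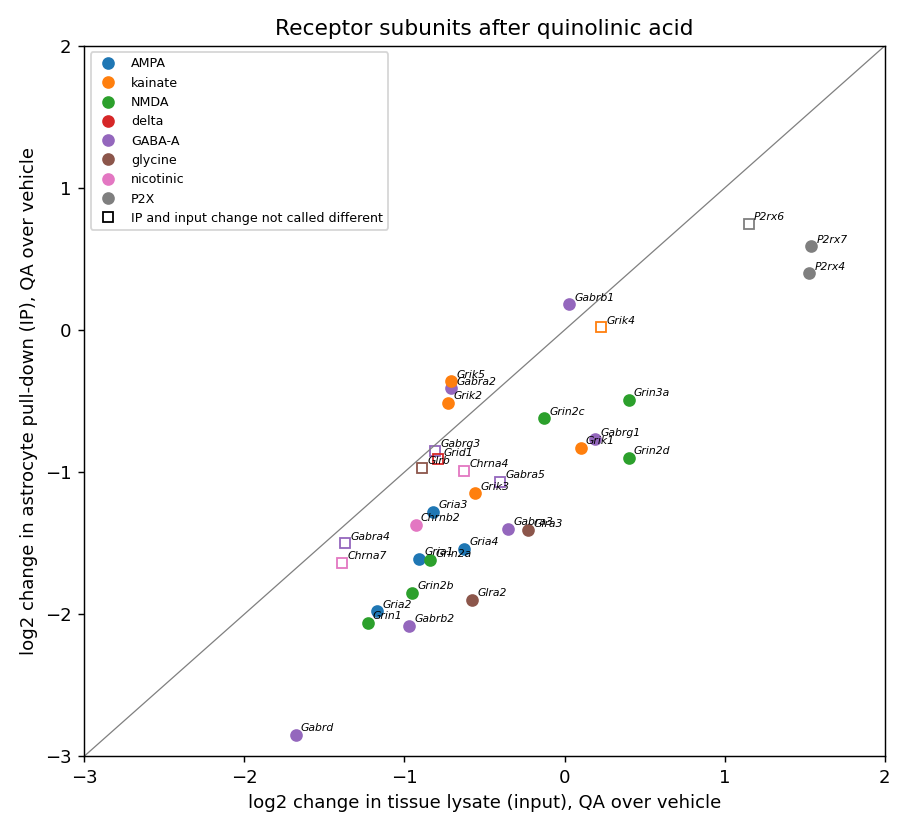
Log2 change of QA over vehicle in IP (vertical) and in input (horizontal), with 1 symbol per member, filled circles where the 2 changes differed by the test and open squares where they did not. Most members lie below the line of equal change, with Gabrd at −2.85 in IP and −1.68 in input and P2rx7 at 0.59 and 1.54.

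**Figure D4:**
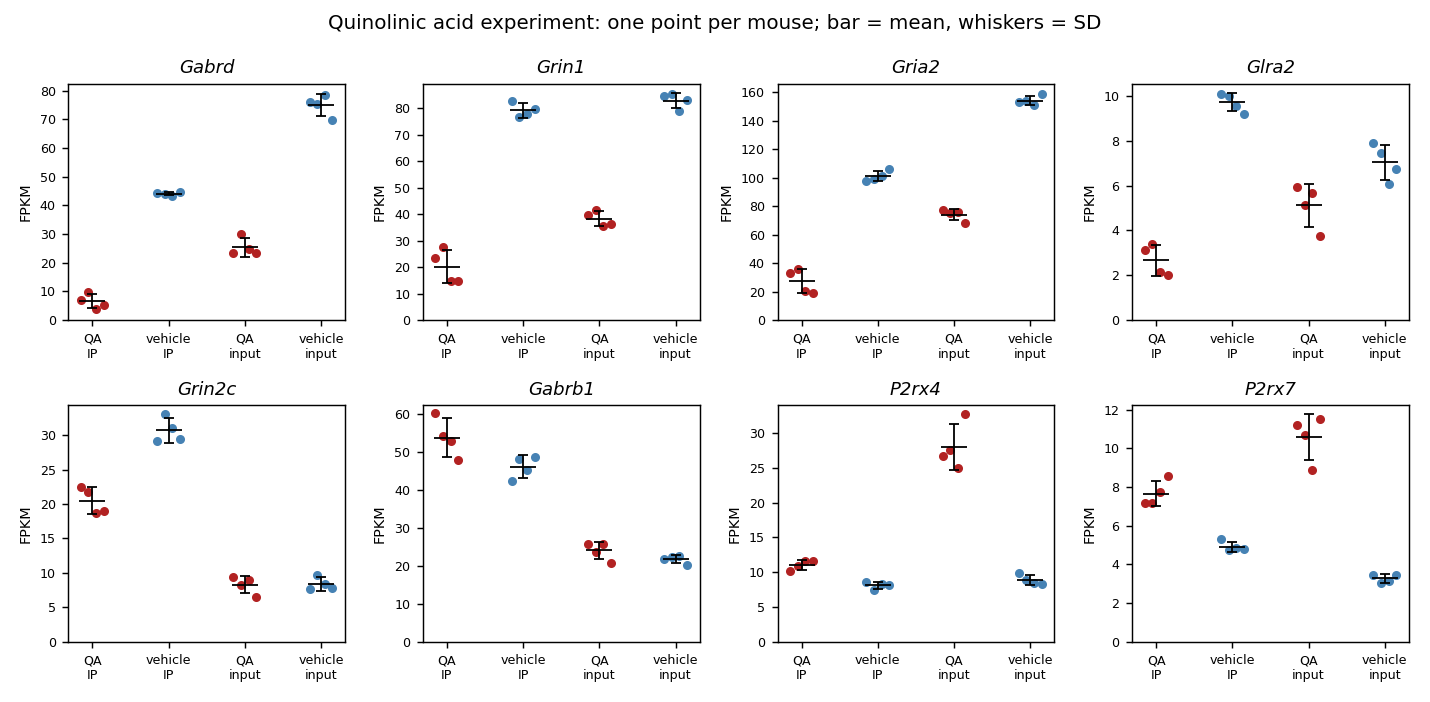
FPKM of 8 members in each mouse, as dots, in QA IP, vehicle IP, QA input and vehicle input, with the mean as a bar and the SD as whiskers. Gabrd, Grin1, Gria2 and Glra2 are lower in QA mice in both fractions, Grin2c is lower in QA IP alone, and P2rx4 and P2rx7 are higher in QA mice, most in input.

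The lists around the receptors followed in part. In QA IP 10 of 13 auxiliary subunits fell and 3 rose, where 38.5% of all genes were called downward and 35.5% upward. Cacng5, a transmembrane AMPA receptor regulatory protein, was 7.27 ± 0.219 FPKM in QA IP and 2.92 ± 0.258 in vehicle IP (1.26 ± 0.07), and Shisa6 rose by 1.29. Cacng3 had 3.95 FPKM in QA IP and 17.8 in vehicle IP (−2.25). Of 17 scaffolds 14 fell, led by Camk2b (−2.17) and Homer1 (−1.89), and Homer3 alone rose (1.00). Of 10 GABA-A and glycine receptor partners 6 fell and 2 rose. Gphn, the gene of gephyrin, had 27.7 FPKM in QA IP and 42.1 in vehicle IP (−0.64). Of 7 nicotinic chaperones and prototoxins 4 fell and 2 rose, among them Ly6e with 32.4 ± 10.7 FPKM in QA IP and 16.8 ± 2.78 in vehicle IP (0.85). Of 8 genes of transmitter synthesis and loading 7 fell, Slc17a8 by 2.74 and Gad1 by 2.15. In input 11, 12, 8, 5 and 7 members of these 5 lists fell and 2, 2, 2, 2 and 0 rose. Of all genes 37.6% were called downward and 35.4% upward in QA input.

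LPS was given to induce neuroinflammation. Of 40 members in IP 9 fell and 1 rose, where 36.9% of all genes were called (18.6% upward, 18.3% downward), and the median was −0.10. The member that rose was Gabrr2, a rho subunit best known from retina. It was tested only because the 4 LPS libraries reached 0.5 FPKM, so a difference was built into its selection, and its values are given as a description. Gabrr2 was 0.745, 1.41, 0.914 and 0.905 FPKM in LPS IP, against 0.185, 0.0954, 0.0568 and 0.175 in vehicle IP (2.36 ± 0.25), and 0.785, 1.86, 1.04 and 1.25 in LPS input, against 0.133, 0.252, 0.201 and 0.400 in vehicle input (1.98 ± 0.30). The input change was 0.84 with a pseudocount of 1 and 2.38 with voom, the ends of its range over 12 alternatives. Every LPS mouse lay above every vehicle mouse in both fractions. The IP value rests on 335 reads in the 4 LPS mice and 43 in the vehicle mice. It lies under the level set for naming in IP and was chosen there after its values were seen.

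Among the 9 that fell in IP were 4 GABA-A genes and Chrna7. Gabrd was 24.3, 24.7, 16.6 and 17.8 FPKM in LPS IP, against 36.4, 30.3, 35.1 and 33.1 in vehicle IP (−0.58 ± 0.13, adjusted p = 0.0127), and it fell in input too (−0.53 ± 0.10, adjusted p = 0.00939). Gabra2 was 21.7, 22.0, 18.3 and 19.2 FPKM in LPS IP, against 29.4, 30.1, 30.3 and 27.8 in vehicle IP (−0.41 ± 0.07, adjusted p = 0.00535), and 29.0 to 36.4 in LPS input, against 43.6 to 46.7 in vehicle input (−0.41 ± 0.07, adjusted p = 0.00531). The arms of both genes did not overlap in either fraction. Chrna7 was 5.01 to 5.98 FPKM in LPS IP, against 7.76 to 8.78 in vehicle IP (−0.43, adjusted p = 0.00982), and fell in input by 0.24. Grik3 fell by 0.48 ± 0.10 in IP and 0.32 ± 0.09 in input. In input the call of Chrna7 (adjusted p = 0.0286) was lost in 7 of 16 alternatives and that of Grik3 (adjusted p = 0.0357) in 8, among them leaving out any 1 vehicle mouse or LPS replicate 3 or 4, and for Grik3 also LPS replicate 1.

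Others fell in IP without a call in input when all mice were used. Glrb was 37.2 to 49.4 FPKM in LPS IP, against 56.4 to 61.9 in vehicle IP (−0.38, adjusted p = 0.00369). Grin3a was 5.64 to 6.80 FPKM in LPS IP, against 8.24 to 9.28 in vehicle IP (−0.37, adjusted p = 0.00767). In input Grin3a changed by −0.38 (adjusted p = 0.131), and without LPS replicate 2 by −0.54, which was called (adjusted p = 0.00833). The difference between its IP and input changes was 0.02 and was not called. Gabrb1 was 35.3 to 41.5 FPKM in LPS IP, against 46.2 to 52.3 in vehicle IP (−0.23, adjusted p = 0.0242). In Glrb, Grin3a and Gabrb1 the arms did not overlap in IP. Gabra4 (−0.34, adjusted p = 0.0307) and Grin2c (−0.33, adjusted p = 0.0376) were nearer to the threshold. Leaving out single mice or other settings ended the call in 6 and 7 of 16 alternatives. Without LPS replicate 2 Grin2c was also called in input (−0.17, adjusted p = 0.0264).

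In LPS input 4 members rose and 5 fell, where 31.3% of all genes were called (15.4% upward, 16% downward). Besides Gabrr2 the 3 that rose were glutamate receptor genes. Grik5 was 77.6, 70.1, 75.9 and 84.0 FPKM in LPS input, against 59.0, 63.7, 57.1 and 57.9 in vehicle input (0.42 ± 0.08, adjusted p = 0.00972). Grin1 was 106, 96.5, 103 and 107 FPKM in LPS input, against 85.6, 91.9, 85.5 and 84.5 in vehicle input (0.30, adjusted p = 0.0182). Gria1 was 117 to 135 FPKM in LPS input, against 109 to 113 in vehicle input (0.25, adjusted p = 0.0133). None of these arms overlapped. Gria4 fell in input by 0.20 (adjusted p = 0.0404). The Gria4 call was lost in 8 of 16 alternatives, among them RLE scaling and leaving out any 1 vehicle mouse or LPS replicate 3 or 4, and that of Grin1 in 5, all without 1 mouse (vehicle replicate 1, 3 or 4 or LPS replicate 3 or 4).

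These counts depended on LPS replicate 2. Without it 17 members were called in IP, 5 higher and 12 lower, 9 of them shared with the 10 above. In input 19 were called, 9 higher and 10 lower, 8 of them shared with the 9 above. The share of all genes called without replicate 2 is not given here, so whether members moved more than other genes was not tested. P2rx7 was 1.52, 3.02, 1.42 and 1.49 FPKM in LPS input, against 2.77, 2.56, 2.89 and 2.69 in vehicle input, so that replicate 2 alone lay in the vehicle range. It was not called with all mice (−0.55, adjusted p = 0.0691) and was called without that mouse (−0.77, adjusted p = 2.16e-04), as was P2rx4 (−0.45). The input count was 5 without vehicle replicate 1, 3 or 4, and 4 without LPS replicate 3 or 4. Without the TMM scaling 17 members were called in IP, 1 higher and 16 lower, with the median of all genes at −0.16 in place of −0.03, and 12 in input, 4 higher and 8 lower.

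The change differed between IP and input for 2 of 40 members, where 8.71% of all genes were called. For Grik5 the IP change minus the input change was −0.20 (adjusted p = 0.0442), with 27.6 to 34.3 FPKM in LPS IP, against 27.6 to 29.9 in vehicle IP, and a change of 0.21 in IP and 0.42 in input. The call was lost without LPS replicate 1, 3 or 4 or any 1 vehicle mouse, with no filter and without the mouse block, and without replicate 2 there were 5. Of the lists 9 of 17 scaffolds and 5 of 13 auxiliary subunits fell in LPS IP, with Homer1 at −0.62. Of all genes 18.3% were called downward and 18.6% upward there. Lypd6 had 3.78 FPKM in LPS IP and 9.66 in vehicle IP (−1.24 ± 0.16, adjusted p = 0.00174). Of 10 GABA-A and glycine receptor partners 1 rose, of 7 chaperones and prototoxins 2 rose and 3 fell, and of 8 synthesis and loading genes 1 fell. The medium spiny neuron markers summed to 1503 to 2114 FPKM in LPS IP, against 1880 to 2330 in vehicle IP, and 7 of 15 fell. The microglia markers summed to 548 to 892 FPKM in LPS input, against 597 to 737 in vehicle input, and 7 of 14 fell while 2 rose. Their part in the results was not tested.

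Cre was delivered to the Kir4.1flox/flox mice to reduce potassium current in astrocytes. Of 41 members in IP 16 rose and 2 fell, where 29.5% of all genes were called, 14% upward and 15.5% downward. The median was 0.13, beside 0.01 for all genes, and the changes were small. All 4 AMPA genes rose, with 3 of 6 NMDA, 6 of 13 GABA-A, 1 of 5 kainate and 1 of 4 glycine genes.

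The largest change was the fall of P2rx7. It was 3.90, 4.34, 4.06 and 4.11 FPKM in Cre IP, against 6.47, 6.58, 6.55 and 6.34 in TdTomato IP (−0.61 ± 0.05, adjusted p = 2.21e-05). The arms were far apart, and the call held in 17 of 17 alternatives. In input it was 2.28 to 2.62 FPKM in Cre mice, against 2.96 to 3.84 in TdTomato mice, without overlap but also without a call (−0.39, adjusted p = 0.299). P2rx4 next to it was not called (0.08). P2rx6 fell in IP (−0.36, adjusted p = 0.0314), a call lost in 8 of 17 alternatives. The microglia markers summed to 26.0 to 30.3 FPKM in Cre IP, against 32.2 to 36.8 in TdTomato IP, and 4 of 10 fell.

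Gria2 was 98.9, 106, 100.0 and 99.4 FPKM in Cre IP, against 79.8, 80.0, 83.5 and 77.0 in TdTomato IP (0.38 ± 0.04, adjusted p = 5.17e-05). Gabra4 was 29.5, 31.5, 29.7 and 31.6 FPKM in Cre IP, against 23.0, 25.1, 22.5 and 24.3 in TdTomato IP (0.40 ± 0.05, adjusted p = 2.21e-04). Gabrd was 34.1 to 39.3 FPKM in Cre IP, against 26.7 to 29.7 in TdTomato IP (0.40, adjusted p = 3.61e-04). In these 3 genes, each lower in control IP than in control input, every Cre mouse lay above every TdTomato mouse. The medium spiny neuron markers moved the same way, summing to 2371 to 2464 FPKM in Cre IP, against 1970 to 2095 in TdTomato IP, and 14 of 15 rose, with a median of 0.26. Their part in the rise was not tested.

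Grin2c and Gabrg1, both high in control IP, rose too. Grin2c was 38.6, 36.3, 39.6 and 40.3 FPKM in Cre IP, against 28.8, 33.4, 30.4 and 31.8 in TdTomato IP (0.36, adjusted p = 0.00107). In input Grin2c also changed by 0.36, without a call (adjusted p = 0.231). The difference between its IP and input changes was 0.02 and was not called. Gabrg1 was 27.0, 23.8, 26.8 and 26.8 FPKM in Cre IP, against 20.5, 20.5, 22.8 and 22.2 in TdTomato IP (0.32, adjusted p = 0.00244). The arms of neither gene overlapped in IP. Of 15 astrocyte markers 3 rose and 4 fell, with sums of 5969 to 6358 FPKM in Cre IP and 5817 to 6354 in TdTomato IP. Gabra2 was 11.6 to 12 FPKM in Cre IP, against 8.90 to 10.5 in TdTomato IP (0.33, adjusted p = 0.00153), and Grik2 rose by 0.30 (adjusted p = 7.81e-04).

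In Cre input 0 of 40 members were called, and 3 had an unadjusted p under 0.05, where 0.339% of all genes were called. The change differed between fractions for 1 of 42 members, Gabrg3 (0.51, adjusted p = 0.0389), where 2.21% of all genes were called. Gabrg3 was 15.3 to 17.9 FPKM in Cre IP, against 13.2 to 15.2 in TdTomato IP, and 15.3 to 19.8 in Cre input, against 19.2 to 22.2 in TdTomato input. The call was lost without any 1 TdTomato mouse, without Cre replicate 2, 3 or 4 and with no filter. With the spread taken over all 48 IP libraries only 6 members were called in IP, 5 higher and 1 lower. The share of all genes called with that spread is not given here. Of the lists 10 of 17 scaffolds rose and 1 fell, 6 of 13 auxiliary subunits rose, and Homer1 (0.43) and Homer3 (−0.45) went opposite ways. Of all genes 14% were called upward and 15.5% downward in Cre IP. Among GABA-A and glycine receptor partners 2 rose and 2 fell, and 2 chaperones and 2 synthesis genes rose.

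In the mice labelled IP3R2 knockout 0 of 40 members were called in IP and 0 of 39 in input by limma, where 0% and 0.00709% of all genes were called, and voom on recovered reads called 0 in both. An unadjusted p under 0.05 was given to 4 members in IP and 0 in input. They were Gria3 (0.15), Gabrd (0.16), Gabrg3 (0.15) and P2rx7 (−0.27). P2rx7 was 3.49, 4.00, 3.45 and 3.70 FPKM in IP of the mice labelled knockout, against 4.63, 4.61, 3.88 and 4.74 in wild-type IP (adjusted p = 0.786), and the 2 arms overlapped. Between IP and input 0 of 40 changes differed, with 1 at an unadjusted p under 0.05. All 5 lists had 0 calls in IP and in input.

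CNO in rM3Ds mice changed 1 of 42 members in IP, where 4.56% of all genes were called. P2rx7 was 6.31, 7.84, 6.94 and 8.05 FPKM in CNO IP, against 5.47, 5.38, 5.02 and 5.35 in vehicle IP (0.45 ± 0.08, adjusted p = 0.0103). The arms did not overlap, and the call held in 17 of 17 alternatives, with changes from 0.39 to 0.52. In input it was 3.70 to 4.06 FPKM in CNO mice, against 2.32 to 3.41 in vehicle mice, also without overlap (0.43, adjusted p = 0.284). The microglia markers summed to 37.2 to 39.3 FPKM in CNO IP, against 35.2 to 38.7 in vehicle IP, and 0 of 11 were called. In input 0 of 39 members were called, where 0.591% of all genes were, with 3 at an unadjusted p under 0.05 and 1 called by voom. The difference between fractions was called for 0 of 42 members, 2 at an unadjusted p under 0.05, where 2.07% of all genes were called.

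Grid1, a delta subunit gene, missed the threshold in rM3Ds mice, where the vehicle mice were uneven. It was 19.3, 18.2, 21.6 and 22.1 FPKM in CNO IP, against 10.9, 19.7, 11.5 and 12.3 in vehicle IP (0.62, adjusted p = 0.0956). Its input level was 27.9, 28.6, 29.5 and 30.5 FPKM in CNO mice, against 18.3, 29.6, 18.4 and 19.1 in vehicle mice (0.47, adjusted p = 0.452). Vehicle replicate 2 lay with the CNO mice in both fractions, and the other 3 vehicle mice lay well below. Control mice of the other experiments had 18.1 to 24.7 FPKM in IP and 26.4 to 37.7 in input. Replicate 2 lay within both ranges, and the other 3 vehicle mice lay below them. Without vehicle replicate 2 or 4 there were 2 called members in IP, and without replicate 2 there was 1 in input.

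CNO in hM3Dq mice changed 10 of 41 members in IP, 9 downward and 1 upward, where 46.1% of all genes were called (22.6% upward, 23.4% downward). The median was −0.07. Of the members with high ratios in control IP, Grin2c, Gabrg1, Grin3a, Gabrb1 and P2rx6 fell. Grin2c was 48, 30.5, 32.4 and 31.5 FPKM in CNO IP, against 47.5, 61.6, 65.7 and 64.1 in vehicle IP (−0.75 ± 0.16, adjusted p = 0.00354). CNO replicate 1 overlapped vehicle replicate 1, and the other mice were well apart. Gabrb1 was 45.7, 34.6, 36.8 and 35.8 FPKM in CNO IP, against 60.9, 60.6, 60.9 and 55.1 in vehicle IP (−0.63 ± 0.09, adjusted p = 3.82e-04), and Gabrg1 was 16.4, 11.1, 16.3 and 14.8 in CNO IP, against 19.4, 20.2, 21.7 and 23.7 in vehicle IP (−0.54 ± 0.13, adjusted p = 0.00628). Both were without overlap. P2rx6 was 1.42 to 2.39 FPKM in CNO IP, against 3.07 to 3.92 in vehicle IP (−0.90 ± 0.15, adjusted p = 8.89e-04), the largest fall among the called members.

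Gabra4, low in control IP, was 12.2, 12.9, 13.6 and 14.5 FPKM in CNO IP, against 17.9, 17.6, 17.3 and 18.8 in vehicle IP (−0.41 ± 0.06, adjusted p = 3.81e-04). Grin3a (−0.37), Glrb (−0.35), Grid1 (−0.28) and Gabra2 (−0.26) fell as well. The call of Grin3a was lost without vehicle replicate 1, 2 or 3 or CNO replicate 4, that of Glrb without vehicle replicate 3 or 4, and that of Grid1 with the spread over all 48 IP libraries. P2rx7 rose, with 9.02, 7.74, 6.87 and 6.59 FPKM in CNO IP, against 6.43, 5.48, 5.87 and 6.46 in vehicle IP (0.32 ± 0.11, adjusted p = 0.0441). Its arms did not overlap, but the call was lost in 7 of 16 alternatives. The astrocyte markers summed to 6099 to 7907 FPKM in CNO IP, against 8750 to 9225 in vehicle IP, and 11 of 15 fell with a median of −0.45. The medium spiny neuron markers summed to 1122 to 1544 FPKM in CNO IP, against 1385 to 1564 in vehicle IP, with 1 of 15 called. Their part in the falls was not tested.

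In hM3Dq input 1 of 40 members was called, where 3.72% of all genes were. Grin2c was 8.06, 8.63, 7.49 and 8.34 FPKM in CNO input, against 9.47, 10.9, 11.1 and 10.7 in vehicle input (−0.38 ± 0.07, adjusted p = 0.0192). The arms did not overlap, but 5 alternatives ended the call, among them leaving out vehicle replicate 2, 3 or 4 or CNO replicate 3, and without vehicle replicate 1 there were 2 calls. The change differed between IP and input for 3 of 43 members, where 21.3% of all genes were called. These were Gabrb1 (−0.45, adjusted p = 0.00833), Grin3a (−0.38, adjusted p = 0.0435) and Gabra4 (−0.32, adjusted p = 0.0217). The call of Grin3a was lost in 8 of 15 alternatives, among them leaving out vehicle replicate 1, 2 or 3 or CNO replicate 2, 3 or 4, and that of Gabra4 without vehicle replicate 2 or 4 or CNO replicate 2. Without vehicle replicate 2 there was 1, and without CNO replicate 1 there were 6. In IP 6 members were called without vehicle replicate 3, all among the 10, and 14 without CNO replicate 2. Those 14 were the 9 that fell with all mice and 5 that rose, namely Glra3 (0.67), Gabra5 (0.45), Grik1 (0.42), Grik3 (0.36) and Gabra3 (0.27), while P2rx7 was no longer called.

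Among the lists Neto2, an auxiliary subunit of kainate receptors, had 40.9 ± 3.58 FPKM in CNO IP and 11.9 ± 0.908 in vehicle IP (1.78 ± 0.08, adjusted p = 1.11e-07). Cacng5 had 4.47 FPKM in CNO IP and 1.79 in vehicle IP (1.28), and Shisa6 3.10 in CNO IP and 1.36 in vehicle IP (1.14). With Neto2 they made up the 3 of 13 auxiliary subunits that rose, and 3 others fell. Of all genes 22.6% were called upward and 23.4% downward in this IP comparison. Of 17 scaffolds 2 rose, Dlg1 (0.68) and Homer1 (0.56), and 2 fell. Gphn had 26.3 FPKM in CNO IP and 37.2 in vehicle IP (−0.49) and was 1 of 2 partners that fell. Lypd6 had 4.52 FPKM in CNO IP and 11.6 in vehicle IP (−1.33). It was 1 of 2 chaperones and prototoxins that fell, while 1 rose, and 1 synthesis gene fell.

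**Figure D5:**
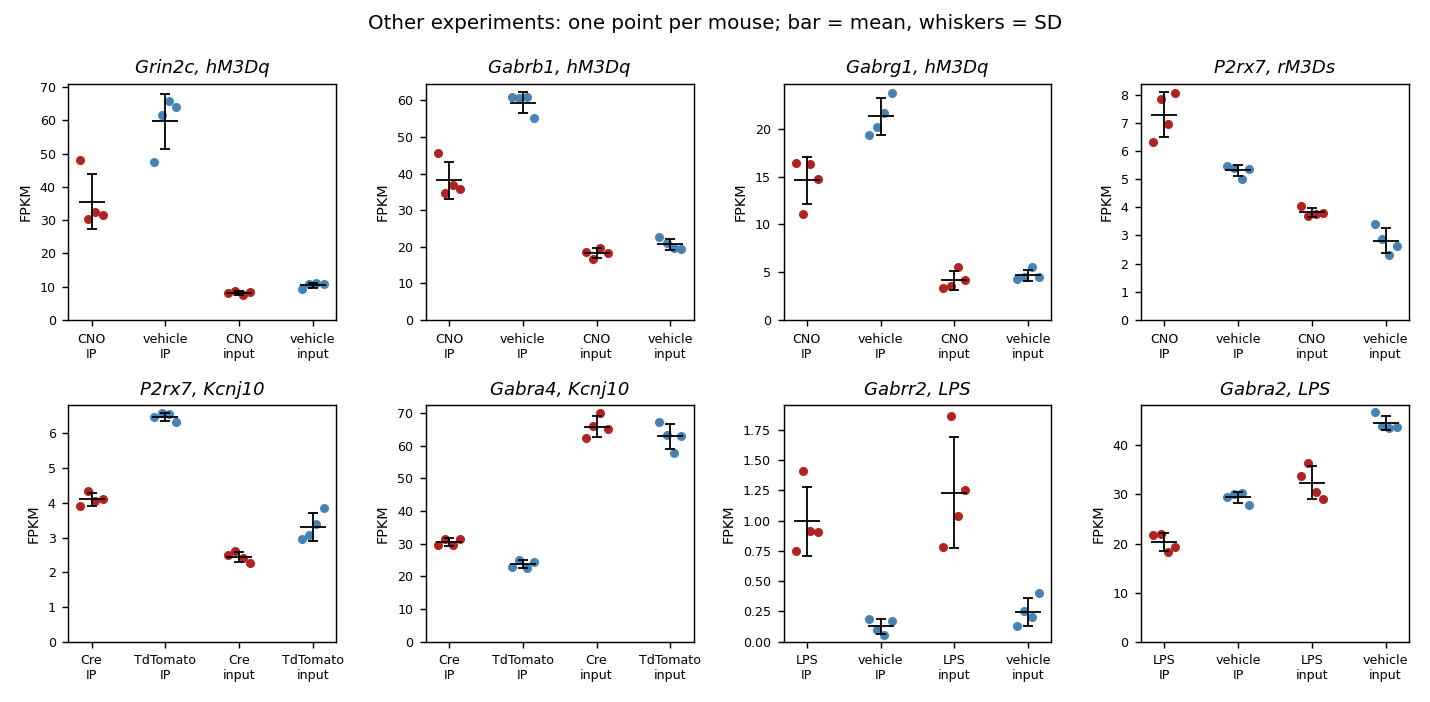
FPKM of single mice, as dots with the mean as a bar and the SD as whiskers, for the members on which the LPS, Kcnj10, rM3Ds and hM3Dq results turn, with treated mice left of controls. CNO replicate 1 at 48 FPKM of Grin2c in hM3Dq IP lies apart from the other 3 at 30.5 to 32.4, and P2rx7 in Kcnj10 IP lies between 3.90 and 4.34 in Cre mice and between 6.34 and 6.58 in TdTomato mice.

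P2rx7 was thus called in 4 of the 6 experiments in IP, and each had its own controls. Grin2c, Glrb, Gabra4 and Gabra2 were among the members called in IP in 4 as well (QA, LPS, Kcnj10 and hM3Dq). This count thus does not set P2rx7 apart. The share of all genes called in 4 experiments is not given here. P2rx7 rose with QA (0.59), with CNO in rM3Ds mice (0.45) and with CNO in hM3Dq mice (0.32), and fell with Cre (−0.61). The hM3Dq call was lost in 7 of 16 alternatives. P2rx7 was not called with LPS (−0.12) or in the mice labelled knockout (−0.27). In input it was called with QA (1.54) and, without LPS replicate 2, with LPS (−0.77). The 6 input changes were not tested against each other. Its neighbour P2rx4 was called in IP with QA (0.40) and, once LPS replicate 2 was left out, with LPS (−0.39, adjusted p = 0.00168).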

How the data were processed

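RNA-seq of 48 mice was analysed, with IP and input of each. STAR, HTSeq and the mm10 build are named for alignment and counting, per the submitters' processing notes, and versions and the strand setting are not given in the sources used here. Per the labels' protocols the kit was stranded with removal of ribosomal RNA, while the molecule label reads polyA RNA. The authors deposited FPKM for 24060 genes. Whole reads could be recovered from the FPKM steps (100% of 2064000 values within 0.001 reads) and served for TMM factors and the voom alternative. Log2 of scaled FPKM + 0.1 was tested with limma 3.58.1 (R 4.3.3, limma-trend, two-sided) on genes at 0.5 FPKM in at least 4 libraries, without a term for sex. IP was set against input, and the changes in both against each other, with the mouse as a block. The counting test listed at first was not needed, since the values are FPKM. Calls are Benjamini-Hochberg adjusted p under 0.05 over all genes. Mice are separate samples by their labels, and p-values measure the spread between them. For control IP over input the fit had no term for ratios that differ between experiments.

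The members and lists were chosen with earlier results of these data known. Named members were those with at least 1 FPKM in a group. For control IP over input they were the 8 highest and 8 lowest ratios and the most abundant member of each family. For treated against control they were the 8 (IP) or 6 (input) largest called changes each way, and for IP against input effects the 4 largest. Further members are given as counts or examples, and a few of the members so chosen are not reported here. From each of 5 pathway lists up to 4 called genes were named. Cell type markers came from 11 lists.

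Alternatives were RLE scaling, no TMM, a pseudocount of 1 or 0.01, no filter, voom, the replicate number as a block, no mouse block, the spread over all 48 libraries of a fraction, sex as a covariate, each experiment alone and each library left out. The fits were tested on simulated data. Promoters came from RefSeq (GRCm38.p6), searched with Python 3.11.15 (numpy 2.4.6, pandas 2.3.3), and figures were drawn with matplotlib 3.10.9.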

Additional observations from a re-analysis of the deposited data

Results flagged for a closer look

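Among 120 groups of 4 mice of the named members, 9 had 1 mouse whose gap to the nearest of the others exceeded the 95% critical value of Dixon's test, and chance gives about 1 in 20. In the QA experiment P2rx6 was 4.26 FPKM in QA IP replicate 4, and P2rx7 was 5.31 in vehicle IP replicate 1. In the LPS experiment Grik3 was 10.2 FPKM in LPS IP replicate 2 and Gria4 13.6 in LPS input replicate 4, while Gabra2 was 46.7 in vehicle input replicate 1 and Grin1 91.9 in vehicle input replicate 2. Gabrg1 was 23.8 FPKM in Cre IP replicate 2. In the hM3Dq experiment Grin2c was 48 FPKM in CNO IP replicate 1, and Gabrb1 was 55.1 in vehicle IP replicate 4.

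The treatment change differed between IP and input, by a test of the difference with the mouse as a block, for the following named members. With QA the IP change minus the input change was −1.25 for Glra2, −1.24 for Grin2d, −1.12 for Glra3 and −1.09 for Gabrd. It was 0.43 for Grik5, 0.38 for Gabra2 and 0.30 for Grik2. With LPS it was −0.20 for Grik5. With Cre it was 0.51 for Gabrg3. With CNO in hM3Dq mice it was −0.45 for Gabrb1, −0.38 for Grin3a and −0.32 for Gabra4.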

How the results depend on the processing

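Counts of called members moved with some settings. They are counts of members alone, and the share of all genes called under the same settings is not given here. LPS IP gave 17 without TMM. With the spread over all 48 libraries of a fraction LPS input gave 17, Kcnj10 IP 6, rM3Ds IP 2 and rM3Ds input 1, and voom gave 1 in rM3Ds input. For the difference between IP and input changes, LPS gave 0 with no filter and 0 without the mouse block, and Kcnj10 gave 0 with no filter, 8 with voom and 3 without the mouse block. With 1 library left out at a time QA IP gave 36 to 38, QA input 31 to 33, LPS IP 7 to 17, LPS input 4 to 19, Kcnj10 IP 14 to 19, Kcnj10 input 0 to 0, Itpr2 IP and input 0 to 0, rM3Ds IP 1 to 2, rM3Ds input 0 to 1, hM3Dq IP 6 to 14, hM3Dq input 0 to 2 and control IP over input 35 to 39. The difference between fractions gave 27 to 32 for QA, 0 to 5 for LPS, 0 to 1 for Kcnj10, 0 for Itpr2, 0 to 0 for rM3Ds and 1 to 6 for hM3Dq. The cause of these moves was not tested.

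In control mice Glrb was −0.17 and P2rx4 −0.05 without TMM. Within single experiments Grin1 was 0.13 in QA and 0.10 in Itpr2 controls, Chrnb2 0.00 in Itpr2 and 0.10 in rM3Ds controls, Glrb −0.01 in hM3Dq and P2rx4 −0.09 in Kcnj10 controls, each opposite to the ratio over 24 mice. Over all named members and settings 1815 values kept direction and call, 151 lost the call, 2 gained it and 8 changed direction.

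Replicate numbers are shared between arms. No experiment had a correlation of deviations above 0.1 in each pair (in rM3Ds IP 0.203, 0.412, −0.163 and 0.532), and the main fits did not pair the arms. Single pairs elsewhere were also above 0.1, such as 0.318 in Kcnj10 IP replicate 3 and 0.381 in rM3Ds input replicate 4. Whether mice of the same number share a batch was not tested. With the replicate block hM3Dq input gave 0 called members in place of 1 (Grin2c), and the block also ended the calls of Grik3, Chrna7 and Gria4 in LPS input, Grin2c in LPS IP and Gabrb1 in QA IP. Low members are limited by depth: the 20 members not tested cannot be called absent.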

Other observations

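Some members differed between mice in ways that the arms do not describe, chosen after their values were seen and given with no test. Gabra2 was 8.90 to 12 FPKM in IP of the 8 Kir4.1flox/flox mice, in both arms, and 14.9 to 42.5 in IP of the 40 others. In input it was 17.2 to 20.8 FPKM in the Kir4.1flox/flox mice and 24.1 to 56.3 in the others, and the ranges did not meet in either fraction. Among the mice labelled IP3R2 knockout Gabra2 was 42.5, 25.1, 25.4 and 41.2 FPKM in IP and 56.3, 34.5, 38.5 and 48.7 in input, with replicates 1 and 4 high in both fractions, against 24.9 to 28.6 in wild-type IP and 34.5 to 39.0 in wild-type input. In the rM3Ds experiment 3 of 4 vehicle mice had 10.9 to 12.3 FPKM of Grid1 in IP and 18.3 to 19.1 in input. Both were lower than in replicate 2 and in the control mice of the other experiments.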
